A study of Mus musculus with 12 samples.

Results

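The liver endothelial markers described here are 33 genes: 10 markers of sinusoidal endothelial cells, 3 ligands through which those cells signal to hepatocytes, and 20 general vascular markers. They were chosen by name, with earlier results of these data known. Shares of all genes given beside the counts of members are thus a scale and not a test. Each member was read from a probe set whose only gene symbol was that of the member. Where there was more than 1 such probe set, the brightest on average was used. All 33 had such a probe set, out of 19937 genes with one, and all 33 were among the 17904 genes kept for testing, so no member was lost to the filter on low values.

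Liver RNA of 12 male C57Bl/6 mice was hybridised to Affymetrix whole-transcript arrays, with 1 array for each animal. The 4 groups of 3 separate animals were HDAC6 Y/- knockouts given dexamethasone, HDAC6 Y/- knockouts given vehicle, wild-type mice given dexamethasone and wild-type mice given vehicle. Dexamethasone, a synthetic glucocorticoid, was injected intraperitoneally at 1 mg/kg over 3 weeks, and all animals were fed freely. HDAC6 removes acetyl groups mainly from proteins of the cytoplasm, among them tubulin and HSP90, a chaperone that holds the glucocorticoid receptor in a state able to bind hormone. The labels give neither how the allele was made nor the age of the mice, and the knockout carries Y/- because the gene lies on the X chromosome.

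Liver sinusoids are lined by a thin endothelium pierced by fenestrae and lacking a continuous basement membrane. Its cells clear hyaluronan, denatured collagen and immune complexes from blood through scavenger and Fc receptors, and they release BMP and Wnt pathway ligands that set iron sensing and the zonation of hepatocytes. Larger hepatic vessels have a continuous endothelium, and both kinds carry receptors for VEGF and angiopoietins and the adhesion molecules of endothelial junctions. In whole liver RNA, fewer cells of a type and less RNA per cell cannot be told apart.

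Levels are log2 intensities and changes are log2 differences, so a change of 1 is a 2-fold difference, and levels of different genes were not compared because each probe set binds with its own strength. Array medians lay between 3.13 and 3.24. Every member was above the median of its array in all 12 arrays, with a lowest member value of 3.34, and the defining markers Stab2, Lyve1, Kdr and Clec4g were present throughout. Hdac6 averaged 4.12 ± 0.26 in knockout vehicle livers and 6.20 ± 0.20 in wild-type vehicle livers (SD, n = 3 each), and it was lower by a similar amount under dexamethasone (-2.23 ± 0.14 SE, against -2.08 ± 0.14 under vehicle). Transcripts of the exocrine pancreas were present in 4 arrays: knockout vehicle 3, wild-type dexamethasone 3, and wild-type vehicle 1 and 2. The mean level of 13 measured pancreas markers was 7.84 to 9.95 in these arrays and 3.13 to 3.50 in the other 8, and each marker was higher in all 4 than in any of the 8. Member calls that were lost without these arrays are given with their values. Without them wild-type vehicle is a single array, assumed to vary like the other groups, so each wild-type or averaged call kept or lost in that setting rests on it.

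Dexamethasone lowered a set of endothelial genes in both genotypes and raised the hyaluronan receptor gene Lyve1. In knockout livers 3 of 33 members were higher with dexamethasone and 7 were lower by limma's test (Benjamini-Hochberg adjusted p under 0.05 over all genes kept), where 4.38% and 3.92% of all genes tested were. In wild-type livers 1 of 33 was higher and 8 were lower, where 4.57% and 6.95% of all genes were. At an unadjusted p under 0.05 the numbers in either direction were 15 in knockouts and 19 in wild type, against 18.5% and 23.6% of all genes. The genes lower in both genotypes were Kdr, Clec14a, Cldn5, Tek, Clec4g and Fcgr2b, which make up 85.7% of the knockout list of lower members and 75% of the wild-type list. No member was called in opposite directions, and 25 of 33 changed with the same sign in both genotypes, which share no arrays but share the estimate of spread. The shares of all genes with the same sign or with calls in both genotypes were not counted. The agreement between genotypes is thus not read as particular to the members. With each array centred on its median the knockout counts were 3 higher and 3 lower (Clec14a, Gata4 and Kdr), while the wild-type counts stayed at 1 and 8 (7.93% of all genes in knockouts and 12.3% in wild type).

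**Figure D1:**
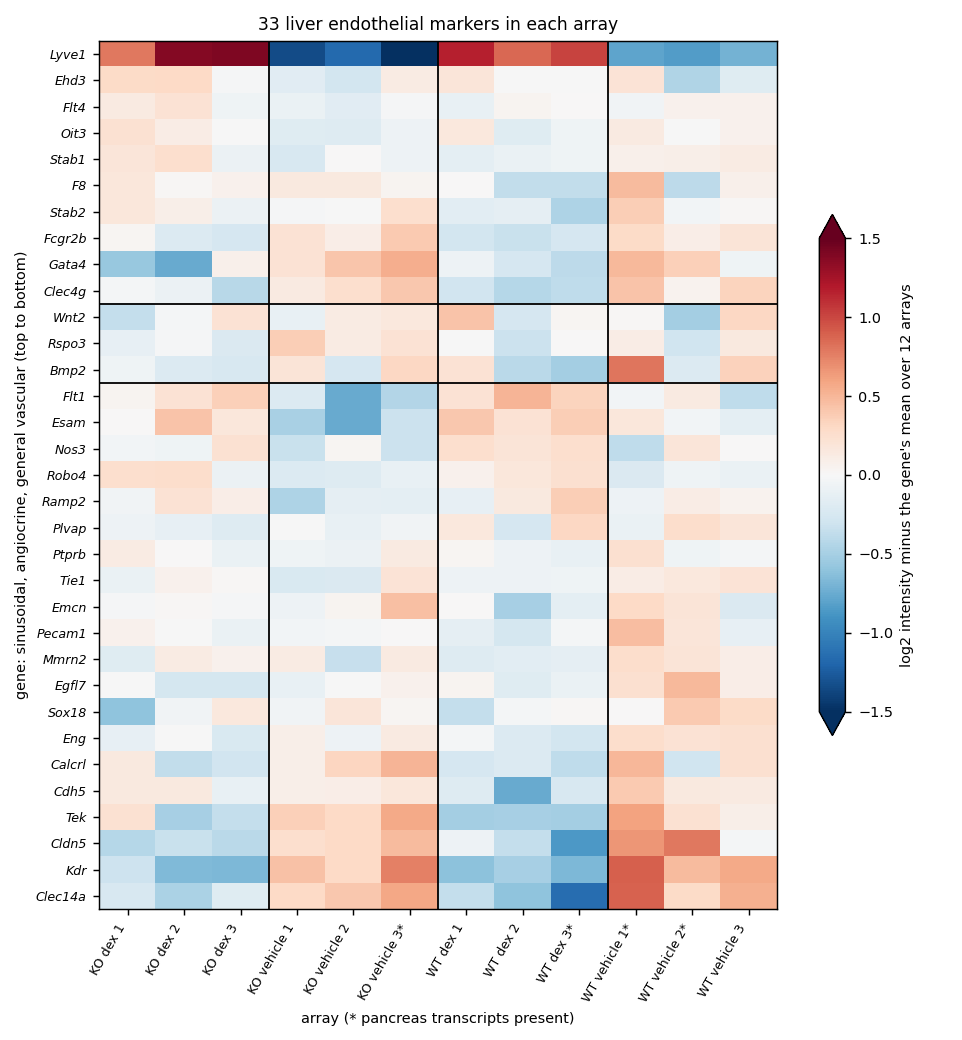
Log2 intensity of the 33 members (rows, grouped as sinusoidal, angiocrine and general vascular) in each of the 12 arrays (columns), minus the mean of the gene over the arrays; an asterisk marks the 4 arrays with pancreas transcripts. Lyve1 is high in all 6 dexamethasone arrays, while Kdr and Clec14a at the bottom are low in the same 6.

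Arrays of the treated and vehicle groups did not overlap for 6 members that were higher and 8 that were lower in knockout livers, against 11.7% and 12.6% of all genes. The corresponding wild-type numbers were 5 higher and 14 lower, against 12.5% and 14.5% of all genes. The median change of the 33 members was -0.06 in knockout livers and -0.30 in wild-type livers, while the median over all genes was -0.01 and 0.01. Members that did not pass ranged between -0.48 and 0.33 in knockout livers and between -0.55 and 0.45 in wild-type livers.

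**Figure D2:**
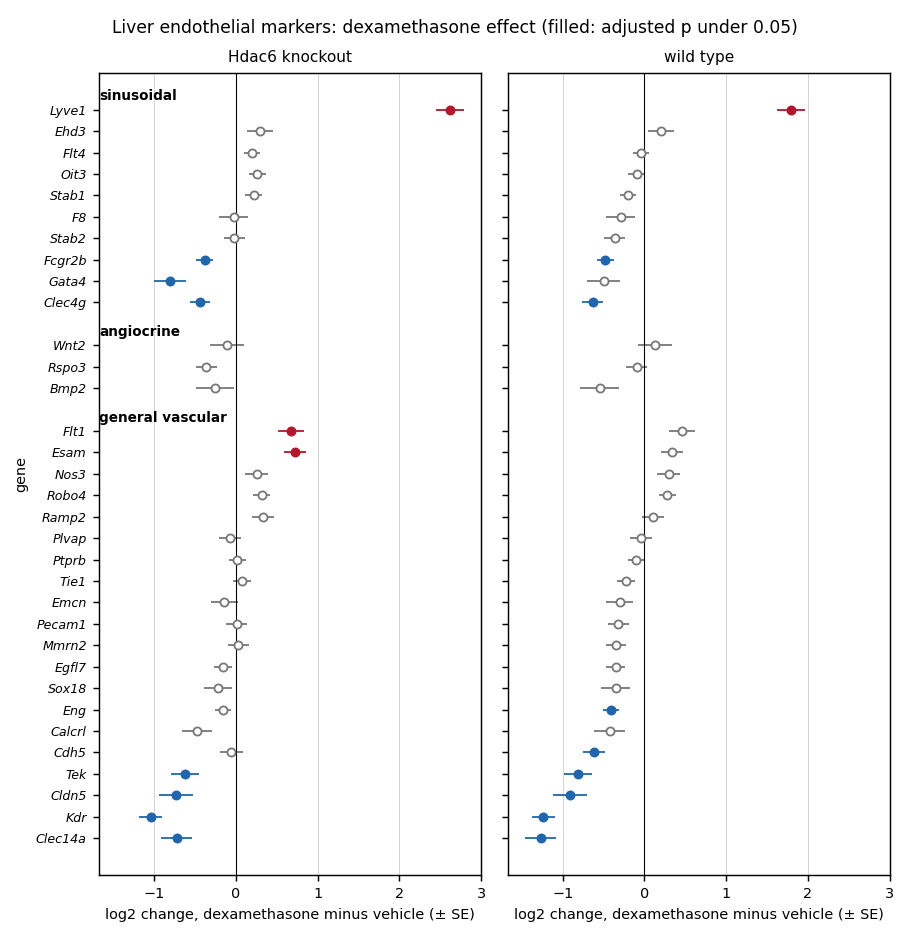
Log2 change with dexamethasone (dexamethasone minus vehicle, ± SE from limma) of every member in knockout livers (left) and wild-type livers (right); filled points passed the adjusted threshold. Lyve1 lies far to the right in both panels, and Kdr, Clec14a, Cldn5 and Tek lie to the left.

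Lyve1, a hyaluronan receptor of sinusoidal and lymphatic endothelium that some macrophages also carry, had the largest change of any member in both genotypes. Its level was 7.07, 7.66 and 7.68 in knockout dexamethasone livers, against 4.94, 5.12 and 4.51 in knockout vehicle livers, and 7.44, 7.15 and 7.30 in wild-type dexamethasone livers, against 5.49, 5.45 and 5.57 in wild-type vehicle livers. All 6 treated arrays stood well above all 6 vehicle arrays. The change was 2.62 ± 0.17 in knockouts, a 6.13-fold rise (adjusted p = 7.82e-07), and 1.80 ± 0.17 in wild type, a 3.47-fold rise (adjusted p = 2.27e-05). Of 5 lymphatic markers, 4 were measured and 0 passed limma's threshold in either genotype (at an unadjusted p under 0.05, 1 in knockouts and 0 in wild type). Of all genes, 4.38% were higher and 3.92% lower in knockouts, and 4.57% and 6.95% in wild type. At the unadjusted p the shares were 18.5% and 23.6%. A list of 4 is too short to be read against these shares. Mmrn1, which encodes multimerin 1 and was singled out after its values were seen, passed in the average over genotypes (0.32 ± 0.09, adjusted p = 0.027), with 0.39 ± 0.13 in knockouts and 0.24 ± 0.13 in wild type. Its group means were only 1.98 (knockout vehicle) to 2.48 (wild-type dexamethasone), close to the 20th percentile of the arrays (2.17 to 2.23). The Mmrn1 call thus rests on values at the low end of the arrays. Prox1, a transcription factor that defines lymphatic endothelium and that hepatocytes also express, differed by 0.44 ± 0.28 in knockouts and 0.01 ± 0.28 in wild type.

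The scavenger receptor Stab2, which also takes up hyaluronan, did not follow Lyve1. It measured 7.48, 7.40 and 7.23 in knockout dexamethasone livers, against 7.29, 7.31 and 7.57 in knockout vehicle livers, and 7.16, 7.18 and 6.84 in wild-type dexamethasone livers, against 7.68, 7.27 and 7.33 in wild-type vehicle livers. The knockout groups overlapped, whereas each treated wild-type array lay below each vehicle one. The change was -0.02 ± 0.13 in knockouts (adjusted p = 0.97) and -0.37 ± 0.13 in wild type (adjusted p = 0.10), and neither passed. Its relative Stab1 also passed in neither genotype, at 0.22 ± 0.10 and -0.20 ± 0.10.

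Clec4g, the C-type lectin LSECtin of sinusoidal cells, fell in both genotypes. Its level was 9.46, 9.40 and 9.08 in knockout dexamethasone livers, against 9.62, 9.74 and 9.90 in knockout vehicle livers, and 9.20, 9.07 and 9.11 in wild-type dexamethasone livers, against 9.92, 9.54 and 9.82 in wild-type vehicle livers. No treated array reached the lowest vehicle array of its genotype. The change was -0.44 ± 0.13 in knockouts (adjusted p = 0.047) and -0.63 ± 0.13 in wild type (adjusted p = 0.005). The other probe set of Clec4g had a mean of 2.58, close to the 20th percentile of the arrays (2.17 to 2.23). It changed by -0.07 in knockouts and by 0.28 ± 0.10 in wild type. With the mean of its probe sets, Clec4g passed in neither genotype. The knockout call was lost when any of 9 arrays was left out, all but knockout dexamethasone 1 and wild-type vehicle 1 and 2 (-0.50 to -0.32 when lost).

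Fcgr2b, the inhibitory Fc receptor with which sinusoidal cells take up immune complexes, also fell in both. It measured 6.92, 6.68 and 6.63 in knockout dexamethasone livers, against 7.11, 6.98 and 7.28 in knockout vehicle livers, and 6.61, 6.55 and 6.64 in wild-type dexamethasone livers, against 7.18, 6.99 and 7.08 in wild-type vehicle livers. The groups of each genotype were apart. Fcgr2b fell by 0.38 ± 0.10 in knockouts (adjusted p = 0.038) and by 0.48 ± 0.10 in wild type (adjusted p = 0.008). In knockouts the call was lost without any 1 of 7 arrays (knockout dexamethasone 2 or 3, knockout vehicle 1 or 3, wild-type dexamethasone 1 or 2, or wild-type vehicle 3), with values between -0.39 and -0.30.

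Gata4, a transcription factor needed for the sinusoidal identity of endothelium in mouse liver, passed in knockouts alone, although its difference between genotypes was not called. Its level was 5.45, 5.25 and 6.09 in knockout dexamethasone livers, against 6.23, 6.42 and 6.56 in knockout vehicle livers, and 5.94, 5.76 and 5.61 in wild-type dexamethasone livers, against 6.50, 6.37 and 5.94 in wild-type vehicle livers. Knockout dexamethasone 3 stood close to the vehicle arrays and the other 2 far below them. The change was -0.81 ± 0.20 in knockouts (adjusted p = 0.022) and -0.50 ± 0.20 in wild type (adjusted p = 0.14). The knockout call was lost without knockout vehicle 2 or 3, or without knockout dexamethasone 1 or 2, with values between -0.80 and -0.63. Over all omissions of a single array the knockout value ran from -1.055 to -0.63.

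The other sinusoidal markers, namely the zona pellucida domain protein gene Oit3, the endocytic recycling gene Ehd3, the lymphangiogenic VEGF receptor gene Flt4 and the coagulation factor VIII gene F8, passed in neither genotype. Oit3 changed by 0.26 ± 0.10 in knockouts, where its groups were apart, and by -0.10 ± 0.10 in wild type. Ehd3 was higher on average with dexamethasone in both genotypes (0.30 ± 0.16 and 0.20 ± 0.16) without passing. Flt4 and F8 had values of 0.19 and -0.03 in knockouts and of -0.05 and -0.29 in wild type.

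The ligands that sinusoidal and central vein endothelium sends to hepatocytes gave 0 calls of 3 in limma in either genotype (1 of 3 at an unadjusted p under 0.05 in each). Of all genes, 4.38% were higher and 3.92% lower in knockouts, and 4.57% and 6.95% in wild type. At the unadjusted p the shares were 18.5% and 23.6%. A list of 3 is too short to be read against these shares. Bmp2, which drives hepcidin expression, averaged 5.40 ± 0.09 in knockout dexamethasone livers and 5.66 ± 0.30 in knockout vehicle livers, and 5.34 ± 0.39 in wild-type dexamethasone livers and 5.89 ± 0.50 in wild-type vehicle livers (SD, n = 3 each). Its changes of -0.26 ± 0.24 in knockouts (adjusted p = 0.68) and -0.55 ± 0.24 in wild type (adjusted p = 0.18) did not pass, and the wild-type value was the one at an unadjusted p under 0.05. That value was between -0.81 and -0.30 without single arrays and passed without wild-type vehicle 2. Rspo3, which amplifies Wnt signals around central veins, changed by -0.36 ± 0.13 in knockouts (adjusted p = 0.13) with groups that did not overlap, and by -0.10 ± 0.13 in wild type. Wnt2 changed by -0.11 ± 0.21 in knockouts and 0.13 ± 0.21 in wild type, and its sign in either genotype turned when single arrays were left out.

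Among the VEGF receptors, Kdr fell and Flt1 went the other way. Kdr, or VEGFR2, carries most growth signals of VEGF in endothelium, and Flt1, or VEGFR1, binds VEGF tightly and acts largely as a trap for it. Kdr measured 6.66, 6.31 and 6.30 in knockout dexamethasone livers, against 7.40, 7.27 and 7.72 in knockout vehicle livers, and 6.35, 6.47 and 6.29 in wild-type dexamethasone livers, against 7.86, 7.44 and 7.54 in wild-type vehicle livers. All 6 treated arrays lay below all 6 vehicle arrays. The change was -1.04 ± 0.14 in knockouts, a 2.06-fold fall (adjusted p = 0.0004), and -1.24 ± 0.14 in wild type, a 2.36-fold fall (adjusted p = 9.78e-05). The call held without any single array in both genotypes, with values of -1.16 to -0.92 in knockouts and -1.32 to -1.11 in wild type.

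Flt1 had levels of 5.58, 5.75 and 5.90 in knockout dexamethasone livers, against 5.33, 4.78 and 5.10 in knockout vehicle livers, and 5.76, 6.05 and 5.87 in wild-type dexamethasone livers, against 5.50, 5.67 and 5.15 in wild-type vehicle livers. The treated arrays of each genotype lay above its vehicle arrays. The rise of 0.67 ± 0.16 passed in knockouts (adjusted p = 0.017), and the value of 0.45 ± 0.16 in wild type did not (adjusted p = 0.086). Without knockout vehicle 2, knockout dexamethasone 2 or knockout dexamethasone 3, the knockout value was between 0.53 and 0.67 and missed the threshold.

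The promoters of the member with the largest fall in each genotype (Kdr in knockouts, Clec14a in wild type) and of Flt1, a member that rose, are shown because the genes changed in different directions. The rise of Flt1 passed in knockouts alone. Lyve1 and Esam, which rose more than Flt1 in knockouts, had no promoter window to show. The bases come from RefSeq on build GRCm38.p6, run 5′ to 3′ on the minus strand over the 250 bases before the start of each gene, and carry motif matches in capitals.
Kdr, chr5:75978456-75978705: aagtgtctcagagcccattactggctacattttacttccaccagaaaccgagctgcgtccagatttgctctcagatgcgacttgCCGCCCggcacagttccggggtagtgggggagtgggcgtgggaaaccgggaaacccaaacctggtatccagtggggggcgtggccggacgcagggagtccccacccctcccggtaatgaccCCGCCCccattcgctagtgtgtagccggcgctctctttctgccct
Clec14a, chr12:58269259-58269508: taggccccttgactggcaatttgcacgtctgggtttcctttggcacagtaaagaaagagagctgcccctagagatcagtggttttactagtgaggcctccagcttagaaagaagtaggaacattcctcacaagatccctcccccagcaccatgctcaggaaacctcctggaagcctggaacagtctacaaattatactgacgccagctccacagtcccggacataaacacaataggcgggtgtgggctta
Flt1, chr5:147726012-147726261: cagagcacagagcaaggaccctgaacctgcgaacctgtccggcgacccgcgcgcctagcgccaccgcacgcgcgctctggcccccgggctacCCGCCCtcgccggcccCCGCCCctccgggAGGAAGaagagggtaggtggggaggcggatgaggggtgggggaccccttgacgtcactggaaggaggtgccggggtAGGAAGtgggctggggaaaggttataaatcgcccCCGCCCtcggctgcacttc

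Promoter windows of 300 bases, with 250 before and 50 after the start, were found for 19 of 33 members, in 21 windows. They were searched on both strands for 5 motifs. The core of a glucocorticoid receptor site was taken as AGAACA, and a full site as that core, 3 bases of any kind and the reverse complement of the core, so each full site also counts as a core. For ETS factors the letters were AGGAAG, for GATA factors AGATAA, and for the GC box of Sp1 GGGCGG. The core AGAACA was in the windows of 5 members (Calcrl, Egfl7, F8, Fcgr2b and Tek) and in 19.0% of all 32851 windows. The full site was in 0 member windows and in 3 of all windows, AGGAAG was in the windows of 11 members and 35.4% of all, AGATAA in that of 1 member (Tek) and 11.2%, and GGGCGG in those of 8 members and 35.7%. The Kdr promoter held 2 matches to GGGCGG, both read as CCGCCC on the printed strand, Flt1 held 3 of these and 2 of AGGAAG, and Clec14a held 0 of the 5 motifs in its window.

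Tek and Tie1 encode the angiopoietin receptor TIE2 and its partner. Tek measured 6.13, 5.40 and 5.54 in knockout dexamethasone livers, against 6.26, 6.20 and 6.47 in knockout vehicle livers, and 5.39, 5.40 and 5.39 in wild-type dexamethasone livers, against 6.50, 6.13 and 5.98 in wild-type vehicle livers. The treated wild-type arrays were nearly equal and all below vehicle, while knockout dexamethasone 1 lay just under the vehicle arrays. Tek fell by 0.62 ± 0.17 in knockouts (adjusted p = 0.041) and by 0.81 ± 0.17 in wild type (adjusted p = 0.008). The knockout call was lost without any 1 of 8 arrays (knockout dexamethasone 2 or 3, each knockout vehicle array or each wild-type dexamethasone array), with values from -0.68 to -0.48. Tie1 passed in neither genotype, at 0.07 ± 0.11 and -0.23 ± 0.11.

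Clec14a, an endothelial C-type lectin that takes part in angiogenesis, had the largest fall in wild type. Its level was 4.69, 4.45 and 4.74 in knockout dexamethasone livers, against 5.22, 5.33 and 5.50 in knockout vehicle livers, and 4.57, 4.32 and 3.78 in wild-type dexamethasone livers, against 5.81, 5.22 and 5.46 in wild-type vehicle livers. All 6 treated arrays were below all 6 vehicle arrays. It fell by 0.73 ± 0.19 in knockouts (adjusted p = 0.028) and by 1.27 ± 0.19 in wild type, 2.41-fold (adjusted p = 0.00067). The knockout call was lost when any 1 of the 6 knockout arrays was left out (-0.79 to -0.64). Mmrn2, which encodes a matrix ligand of the same lectin, changed by 0.03 ± 0.13 in knockouts and by -0.35 ± 0.13 in wild type without passing.

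**Figure D3:**
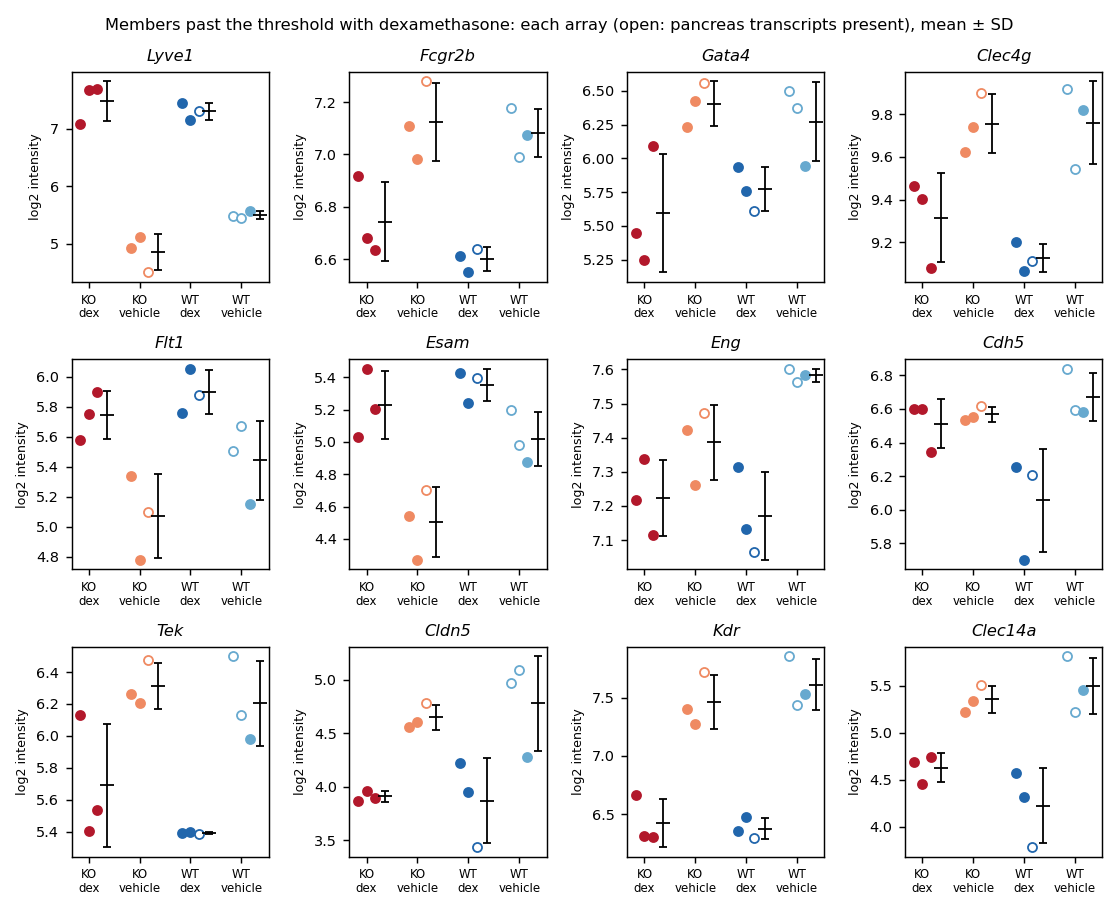
Log2 intensity in each array (points; open where pancreas transcripts were present) with group mean ± SD (n = 3) for the 12 members that passed with dexamethasone in at least 1 genotype; each panel has its own axis. Treated and vehicle arrays lie apart in both genotypes in all panels but those of Cdh5 and Eng, where the knockout groups overlap. The gap is wide for Lyve1, Kdr and Clec14a and narrow for Gata4 and Cldn5 in wild type. The share of all genes apart in both genotypes was not counted.

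Cldn5, the tight junction claudin of endothelium, measured 3.87, 3.96 and 3.89 in knockout dexamethasone livers, against 4.56, 4.60 and 4.78 in knockout vehicle livers, and 4.23, 3.95 and 3.44 in wild-type dexamethasone livers, against 4.97, 5.09 and 4.27 in wild-type vehicle livers. The knockout groups were tight and far apart, while wild-type vehicle 3 came close to wild-type dexamethasone 1. Cldn5 fell by 0.74 ± 0.21 in knockouts (adjusted p = 0.044) and by 0.91 ± 0.21 in wild type (adjusted p = 0.012). The wild-type call was lost without wild-type vehicle 1 (-0.81) or 2 (-0.75), and the knockout call without any knockout array or without wild-type dexamethasone 2 (-0.78 to -0.67). In the 8 arrays without pancreas transcripts the wild-type change was -0.19 ± 0.15, with a single vehicle array left. Between the wild-type arrays that carry these transcripts it was -1.59 (dexamethasone 3 minus the mean of vehicle 1 and 2), and the part of pancreas RNA in the result was not tested.

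Cdh5, or VE-cadherin, the adherens junction cadherin of all endothelium, passed in wild type. It measured 6.60, 6.60 and 6.34 in knockout dexamethasone livers, against 6.54, 6.55 and 6.62 in knockout vehicle livers, and 6.26, 5.70 and 6.21 in wild-type dexamethasone livers, against 6.84, 6.60 and 6.58 in wild-type vehicle livers. The knockout groups overlapped and the wild-type groups did not, with wild-type dexamethasone 2 the lowest. The change was -0.06 ± 0.14 in knockouts (adjusted p = 0.91) and -0.62 ± 0.14 in wild type (adjusted p = 0.011).

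Esam, an adhesion molecule of endothelial tight junctions, rose in knockouts. Its level was 5.03, 5.45 and 5.20 in knockout dexamethasone livers, against 4.54, 4.27 and 4.70 in knockout vehicle livers, and 5.43, 5.24 and 5.39 in wild-type dexamethasone livers, against 5.20, 4.98 and 4.87 in wild-type vehicle livers. The treated arrays were above the vehicle arrays in each genotype, and the knockout vehicle arrays were the lowest of all. The change was 0.72 ± 0.14 in knockouts (adjusted p = 0.004), past the threshold without any single array, and 0.33 ± 0.14 in wild type (adjusted p = 0.15).

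Eng, a coreceptor for BMP9 and TGF-beta, passed in wild type. It measured 7.22, 7.34 and 7.11 in knockout dexamethasone livers, against 7.42, 7.26 and 7.47 in knockout vehicle livers, and 7.31, 7.13 and 7.07 in wild-type dexamethasone livers, against 7.60, 7.56 and 7.58 in wild-type vehicle livers. The wild-type vehicle arrays were nearly equal and above all treated arrays, and the knockout groups overlapped. The change was -0.16 ± 0.10 in knockouts (adjusted p = 0.43) and -0.41 ± 0.10 in wild type (adjusted p = 0.014). The wild-type call was lost without wild-type dexamethasone 2 (-0.39) or 3 (-0.36).

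Averaging the effect over genotypes added Robo4, Calcrl and Egfl7, which had passed in neither genotype. In the average 4 of 33 members were higher and 11 lower, where 7.29% and 9.94% of all genes were. Robo4, an endothelial guidance receptor, measured 5.26, 5.28 and 4.92 in knockout dexamethasone livers, against 4.80, 4.82 and 4.90 in knockout vehicle livers, and 5.08, 5.18 and 5.25 in wild-type dexamethasone livers, against 4.80, 4.95 and 4.91 in wild-type vehicle livers. Treated arrays were above vehicle arrays in each genotype, and the average rise was 0.30 ± 0.07 (adjusted p = 0.012), a call lost without the arrays with pancreas transcripts.

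Calcrl, the receptor that pairs with Ramp2 to bind adrenomedullin, measured 6.01, 5.49 and 5.57 in knockout dexamethasone livers, against 5.95, 6.19 and 6.37 in knockout vehicle livers, and 5.61, 5.66 and 5.48 in wild-type dexamethasone livers, against 6.36, 5.56 and 6.10 in wild-type vehicle livers. The groups overlapped in each genotype, and the average fall was 0.45 ± 0.13 (adjusted p = 0.032). Egfl7, a factor that endothelium secretes into its matrix, measured 6.00, 5.74 and 5.74 in knockout dexamethasone livers, against 5.89, 6.00 and 6.06 in knockout vehicle livers, and 6.05, 5.82 and 5.90 in wild-type dexamethasone livers, against 6.24, 6.48 and 6.10 in wild-type vehicle livers. Its groups were apart in wild type alone, and the average fall was 0.25 ± 0.08 (adjusted p = 0.048). The averaged calls of Calcrl and Egfl7 were each lost without any 1 of 9 arrays (-0.47 to -0.36 and -0.28 to -0.20), and that of Cdh5 without any 1 of 5 (-0.34 to -0.29).

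The other members past the threshold in the average had also passed in at least 1 genotype. Lyve1 averaged a change of 2.21 ± 0.12 (adjusted p = 5.85e-08), Kdr -1.14 ± 0.10 (adjusted p = 4.11e-06), Clec4g -0.54 ± 0.09 (adjusted p = 0.00077) and Stab2 -0.19 ± 0.09, which did not pass (adjusted p = 0.21). Flt1 (0.56 ± 0.11) and Esam (0.53 ± 0.10) were the other members that rose. Clec14a (-0.999 ± 0.13), Cldn5 (-0.82 ± 0.15), Tek (-0.72 ± 0.12), Gata4 (-0.65 ± 0.14), Fcgr2b (-0.43 ± 0.07), Cdh5 (-0.34 ± 0.10) and Eng (-0.29 ± 0.07) were the others that fell.

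General vascular members that passed in no comparison were the adhesion molecule gene Pecam1, the VE-cadherin phosphatase gene Ptprb, the sialomucin gene Emcn, the nitric oxide synthase gene Nos3, the transcription factor gene Sox18, the fenestral diaphragm gene Plvap, and Ramp2, Tie1 and Mmrn2. Nos3 was higher on average with dexamethasone in both genotypes (0.25 ± 0.14 in knockouts and 0.30 ± 0.14 in wild type). Ramp2, whose product pairs with that of Calcrl, had values of 0.33 ± 0.13 and 0.10 ± 0.13. Plvap and Ptprb were between -0.10 and 0.02 in both genotypes.

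Calls were spread over sinusoidal and general vascular markers. Of 10 sinusoidal markers 1 was higher and 3 were lower in knockouts, where 4.38% and 3.92% of all genes were, and 1 was higher and 2 were lower in wild type, where 4.57% and 6.95% were. Against the same shares, 2 of 20 general vascular markers were higher and 4 lower in knockouts, and 0 were higher and 6 lower in wild type. The median change of the sinusoidal markers was 0.09 in knockouts and -0.25 in wild type, that of the general vascular markers -0.07 and -0.33, and that of the 3 ligands -0.26 and -0.10. Averaged over genes, the sinusoidal level was 7.11 to 7.18 in knockout dexamethasone livers, against 6.91 to 7.03 in knockout vehicle livers, and 6.95 to 7.09 in wild-type dexamethasone livers, against 6.94 to 7.21 in wild-type vehicle livers. The general vascular level was 5.61 to 5.65 in knockout dexamethasone livers, against 5.67 to 5.85 in knockout vehicle livers, and 5.54 to 5.62 in wild-type dexamethasone livers, against 5.79 to 5.97 in wild-type vehicle livers. Treated arrays were thus below vehicle arrays for the general vascular mean in both genotypes, narrowly in knockouts (at most 5.65 against at least 5.67). There 9 of 20 general vascular markers changed upward and 11 downward, against 5 and 15 in wild type. The vehicle arrays with the highest general vascular means, wild-type vehicle 1 and 2 and knockout vehicle 3, carried pancreas transcripts. Without the arrays with these transcripts the median general vascular change in knockouts was -0.01 (-0.01 over all genes), with 10 of 20 downward. In wild type, with a single vehicle array left, it was -0.21. The sinusoidal medians were then 0.15 and -0.13. The general vascular mean was not recomputed without the members that fell most. For the sinusoidal mean, treated arrays were above vehicle arrays in knockouts and overlapped with them in wild type. Without Lyve1, left out after its values were seen, the mean of the other 9 sinusoidal markers was 7.04 to 7.20 in knockout dexamethasone livers, against 7.13 to 7.31 in knockout vehicle livers, and 6.91 to 7.05 in wild-type dexamethasone livers, against 7.11 to 7.40 in wild-type vehicle livers. Treated arrays then overlapped with vehicle arrays in knockouts and lay below them in wild type, so the higher knockout mean rested on Lyve1.

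**Figure D4:**
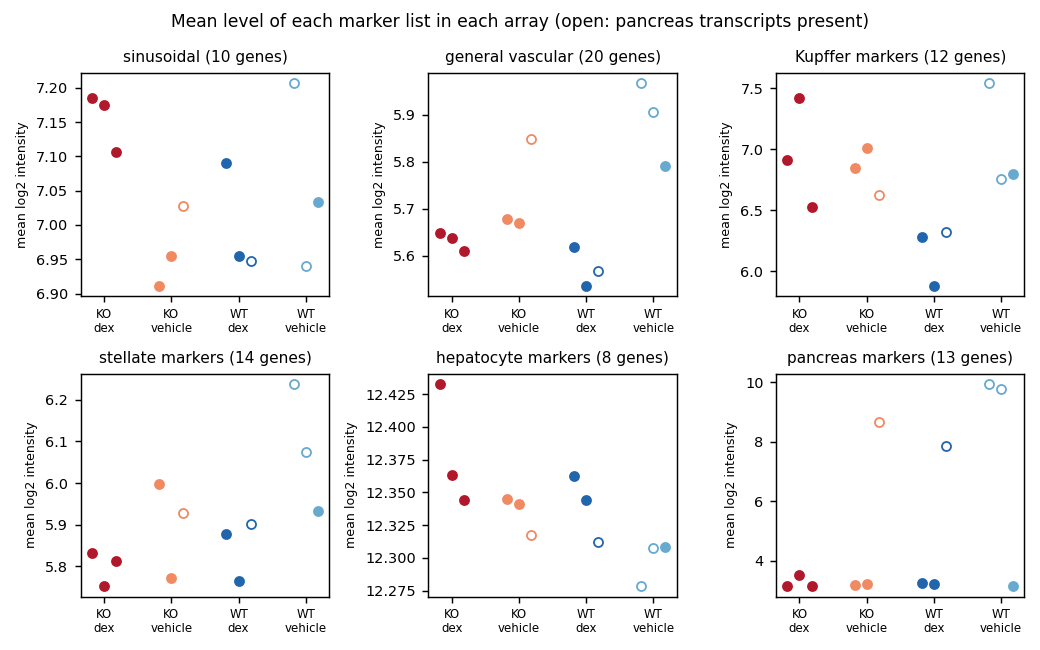
Mean log2 intensity of 6 marker lists in each array (points; open where pancreas transcripts were present); each panel has its own axis, and the level of a list means nothing against that of another. The general vascular mean is lower in treated than in vehicle arrays of each genotype, narrowly in knockouts, and the Kupffer mean is lower in treated than in vehicle wild-type arrays.

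The arrays with pancreas transcripts fell mainly in the vehicle groups, so the counts were repeated in the 8 others, with 3 knockout dexamethasone, 2 knockout vehicle, 2 wild-type dexamethasone and 1 wild-type vehicle array. All 10 knockout and all 9 wild-type calls kept their sign, and 5.84% of all genes passed in knockouts and 3.12% in wild type. In knockouts 5 calls remained: Lyve1 (2.44 ± 0.19), Esam (0.82 ± 0.15), Kdr (-0.92 ± 0.13), Cldn5 (-0.67 ± 0.11) and Clec14a (-0.65 ± 0.13). The knockout calls lost were Gata4 (-0.73 ± 0.22), Flt1 (0.69 ± 0.18), Tek (-0.54 ± 0.19), Clec4g (-0.37 ± 0.13) and Fcgr2b (-0.30 ± 0.12). In wild type 3 remained: Lyve1 (1.73 ± 0.25), Kdr (-1.12 ± 0.18) and Clec14a (-1.01 ± 0.17). Clec4g (-0.69 ± 0.18), Cdh5 (-0.60 ± 0.22), Tek (-0.59 ± 0.25), Fcgr2b (-0.49 ± 0.16) and Eng (-0.36 ± 0.16) missed the threshold in wild type, as did Cldn5 with the value given above. In the average 8 of 15 calls remained, Cldn5 among them at -0.43 ± 0.09, and those lost were Tek (-0.56 ± 0.16), Calcrl (-0.42 ± 0.13), Gata4 (-0.41 ± 0.18), Cdh5 (-0.32 ± 0.14), Robo4 (0.28 ± 0.11), Eng (-0.24 ± 0.10) and Egfl7 (-0.14 ± 0.10). With the mean of the pancreas markers as a covariate in all 12 arrays, the same 9 members passed in wild type, and 3 higher and 3 lower in knockouts (Clec14a, Gata4 and Kdr lower), against 7.47% of all genes in knockouts and 8.69% in wild type. The part of pancreas RNA in these results was not tested.

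No member passed in the comparison of knockout with wild type under vehicle: 0 of 33 in limma, 5 of 33 at an unadjusted p under 0.05 (7.19% of all genes), and 0.101% of all genes past the adjusted threshold. The groups of 7 members were apart with the knockout lower, against 6.04% of all genes. Lyve1 was lower by 0.65 ± 0.17 (adjusted p = 0.43) and Esam by 0.51 ± 0.14 (adjusted p = 0.40), both with every knockout array below every wild-type array. Kdr (-0.15 ± 0.14, adjusted p = 0.87), Stab2 (-0.04 ± 0.13, adjusted p = 0.97) and Clec4g (-0.0043 ± 0.13, adjusted p = 0.995) did not pass, with 95% intervals of -0.46 to 0.16 for Kdr, -0.33 to 0.25 for Stab2 and -0.28 to 0.27 for Clec4g. The median difference of the members was -0.14, while that of all genes was 0.00.

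**Figure D5:**
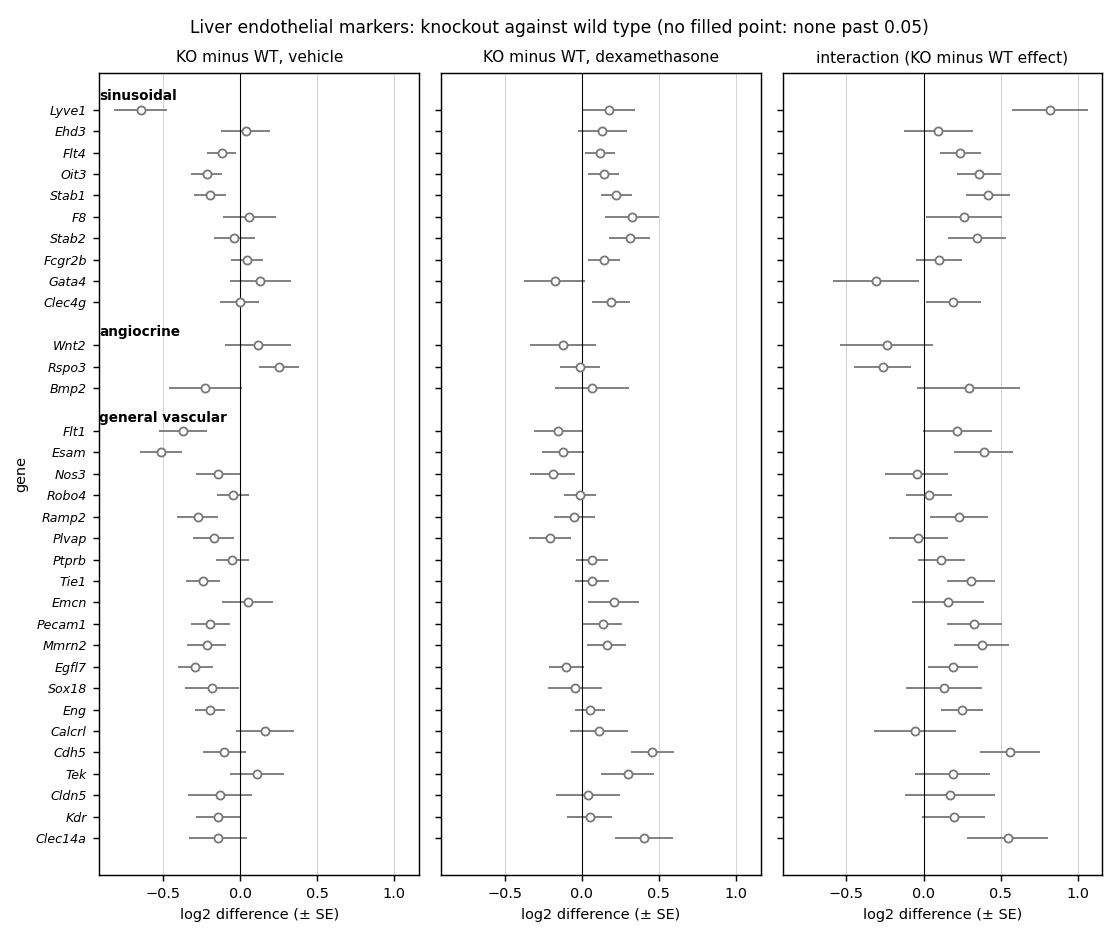
Log2 difference (± SE from limma) of every member between knockout and wild type under vehicle (left), under dexamethasone (middle), and of the effect of dexamethasone in knockouts minus that in wild type (right). No point passed the adjusted threshold, and most points of the right panel lie above 0.

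Under dexamethasone 0 of 33 members differed between knockout and wild type in limma (3 at an unadjusted p under 0.05, against 8.75% of all genes, and 0.0279% of all genes past the adjusted threshold). Knockout arrays were above wild-type arrays without overlap for 4 members, against 6.9% of all genes. Cdh5 was higher by 0.46 ± 0.14 (adjusted p = 0.36) and Stab2 by 0.31 ± 0.13 (adjusted p = 0.54). Lyve1 (0.17 ± 0.17, adjusted p = 0.81), Clec4g (0.19 ± 0.13, adjusted p = 0.70) and Kdr (0.05 ± 0.14, adjusted p = 0.95) had intervals of -0.20 to 0.55, -0.08 to 0.46 and -0.26 to 0.36.

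The difference of the dexamethasone effects between the genotypes passed for 0 of 33 members in limma (4 at an unadjusted p under 0.05, against 6.19% of all genes) and for 0% of all genes, so a call in a single genotype does not show that the genotypes differed. Lyve1 had the largest value, 0.82 ± 0.24 higher in knockouts (adjusted p = 0.62), and its interval ran between 0.29 and 1.35. Cdh5 (0.56 ± 0.20), Stab1 (0.42 ± 0.14) and Oit3 (0.36 ± 0.14) were the others at an unadjusted p under 0.05. Stab2 stood at 0.35 ± 0.19 (adjusted p = 0.83), Kdr at 0.20 ± 0.20 (adjusted p = 0.93) and Clec4g at 0.19 ± 0.18 (adjusted p = 0.91). In all, 27 of 33 members had a value above 0, against 50.4% of all genes, and the median was 0.20 for the members and 0.00 for all genes. The Kupffer cell markers had a value above 0 in 12 of 12, with a median of 0.97 and 8 at an unadjusted p under 0.05, although 0 passed the adjusted threshold, and their part in the members' values was not tested. Over the other settings and omissions of an array the number of members above 0 was 25 to 30, the highest with arrays centred on their medians, where 65.6% of all genes were above 0.

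Other endothelial genes showed changes in both directions. Of 35 measured genes 5 were higher and 3 lower in knockouts, where 4.38% and 3.92% of all genes were. In wild type 4 were higher and 8 lower, where 4.57% and 6.95% of all genes were. The leukocyte adhesion molecule gene Vcam1, which activated endothelium and other liver cells express, averaged 7.25 ± 0.13 in knockout dexamethasone livers and 4.90 ± 0.18 in knockout vehicle livers, and 6.92 ± 0.20 in wild-type dexamethasone livers and 5.16 ± 0.09 in wild-type vehicle livers (SD, n = 3 each). It rose by 2.35 ± 0.12 in knockouts (adjusted p = 7.37e-08) and by 1.77 ± 0.12 in wild type (adjusted p = 1.55e-06). Thbd, or thrombomodulin, an anticoagulant receptor, rose by 1.63 ± 0.16 and 1.65 ± 0.16. The fatty acid transporter gene Cd36, which hepatocytes also express, rose by 1.19 ± 0.20 in knockouts and by 0.86 ± 0.20 in wild type. The sphingosine 1-phosphate receptor gene S1pr1 fell by 0.72 ± 0.12 in knockouts and by 0.46 ± 0.12 in wild type, and the laminin gene Lama4 by 0.66 ± 0.14 and 0.89 ± 0.14. The venous ephrin receptor gene Ephb4 fell by 0.69 ± 0.11 in wild type and changed by -0.29 ± 0.11 in knockouts, where it did not pass. Without the arrays with pancreas transcripts, the calls of all these remained except those of Lama4 (-0.73, adjusted p = 0.091) and S1pr1 (-0.50, adjusted p = 0.29) in wild type.

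Ligands and coreceptors of the same pathways, from a list of 12, gave 1 higher and 2 lower in knockouts, where 4.38% and 3.92% of all genes were. They gave 1 higher and 4 lower in wild type, where 4.57% and 6.95% of all genes were. Adm, which encodes adrenomedullin, the ligand of the receptor that Calcrl and Ramp2 form, rose by 0.65 ± 0.18 in knockouts and by 1.03 ± 0.18 in wild type. The VEGF coreceptor gene Nrp1 fell by 0.49 ± 0.14 and 0.54 ± 0.14, and its relative Nrp2 by 0.67 ± 0.15 in knockouts. Vegfa, whose product binds Kdr and Flt1, fell by 0.40 ± 0.11 in wild type, and Vegfc, whose product binds Flt4, by 0.41 ± 0.11. Without the arrays with pancreas transcripts none of these 7 calls passed, with values of 0.58 and 0.82 for Adm, -0.48 and -0.66 for Nrp1, -0.52 for Nrp2, -0.23 for Vegfa and -0.47 for Vegfc, and all but that of Adm in wild type were also lost when certain single arrays were left out.

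Markers of other liver cell types were counted in the same fit. The shares of all genes past the threshold were 4.38% higher and 3.92% lower in knockouts, and 4.57% higher and 6.95% lower in wild type. Of 12 Kupffer cell markers, macrophage genes of the sinusoid, 1 was higher and 0 were lower in knockouts (limma; 1 at an unadjusted p under 0.05 in either direction), and 1 was higher and 9 were lower in wild type. Their mean level was 6.53 to 7.42 in knockout dexamethasone livers, against 6.63 to 7.01 in knockout vehicle livers, and 5.88 to 6.32 in wild-type dexamethasone livers, against 6.75 to 7.54 in wild-type vehicle livers. Without the arrays with pancreas transcripts none of the 10 wild-type calls passed, with values of -1.48 to -0.54 for the 9 that were lower. Under dexamethasone these markers were higher in knockout than in wild-type livers in 12 of 12, with a median difference of 0.69. The groups of 8 did not overlap, against 6.9% of all genes. In limma 11 were at an unadjusted p under 0.05, against 8.75% of all genes, and 0 passed the adjusted threshold. Stellate cell markers had 1 higher and 1 lower of 14 in knockouts and 1 higher and 2 lower in wild type. The mean level of these was 5.75 to 5.83 in knockout dexamethasone livers, against 5.77 to 6.00 in knockout vehicle livers, and 5.76 to 5.90 in wild-type dexamethasone livers, against 5.93 to 6.24 in wild-type vehicle livers. Of 8 hepatocyte markers 1 was higher in knockouts and 0 in wild type (at an unadjusted p under 0.05, 1 in each). None of 5 cholangiocyte and 2 red cell markers passed in limma in either genotype (0 at an unadjusted p under 0.05). Kupffer and stellate means stood above the array medians in all 12 arrays, and the part of other cell types in the endothelial changes was not tested.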

How the data were processed

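Affymetrix whole-transcript arrays measured liver RNA of 12 mice, per the labels' protocols. The authors' deposited values are on a log2 scale and were made with R 2.10.0 and affy, per the submitters' processing notes. The methods of background correction, normalisation and summarisation are not given in the sources used here. Of 34760 probe sets 21640 carried 1 gene symbol, 1321 several and 11799 none in the platform annotation, and only those with 1 symbol were used, with the highest-mean probe set for each gene. Genes above the 20th percentile of their array in at least 3 of 12 arrays were kept.

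The 4 group means were fitted in limma 3.58.1 (R 4.3.3), with 8 residual and 5.07 prior degrees of freedom and a median residual SD of 0.143. The 6 comparisons were the dexamethasone effect in each genotype and on average, the genotype difference under each treatment, and the interaction. P-values were adjusted by Benjamini-Hochberg over the genes of each comparison, with a threshold of 0.05. The number of arrays limits the precision, and the fit was tested on simulated data in which 200 of 17904 genes changed. A true change of 0.5 was recovered in 37.8% of these in knockouts and in 34.7% in wild type. A true interaction of 0.5 was recovered in 0.05%. At a true size of 1 the shares were 98.6%, 98.15% and 85.4%. The count of 0 in the interaction thus does not show that the effects were alike. Values in each array are given for members that passed anywhere and for Stab2, Lyve1, Kdr and Clec4g, and other lists are given by counts and up to 4 members with the smallest p. The members and lists were chosen with earlier results of these data known. The alternatives were no filter or one at the 50th percentile, quantile normalisation, arrays centred on their median, the mean of a gene's probe sets, no arrays with pancreas transcripts, a pancreas covariate, a replicate block, only the groups compared, and each array left out.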

Additional observations from a re-analysis of the deposited data

How the results depend on the processing

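The number of members lower with dexamethasone in wild type (8) was 2 without the 4 arrays with pancreas transcripts and 7 to 10 without single arrays, and the number higher (1) was 1 to 2, with Robo4 added without knockout dexamethasone 3. In knockouts the number lower (7) was 3 with arrays centred on their median, 3 without the arrays with pancreas transcripts, 3 with the pancreas covariate, 4 with only the groups compared, and 1 to 7 without single arrays, and the number higher (3) was 2 to 3. The number lower in knockouts was 1 without knockout vehicle 3 or knockout dexamethasone 2, with Kdr left. It was 2 without knockout vehicle 1 or 2 or knockout dexamethasone 3. It was 3 without wild-type dexamethasone 2, and 4 without wild-type dexamethasone 1 or knockout dexamethasone 1. The average had 5 lower and 3 higher without the arrays with pancreas transcripts, and 8 to 12 lower and 4 to 5 higher without single arrays. The counts of 0 in the genotype comparisons and the interaction stayed at 0 in all these settings. With the mean of a gene's probe sets, Clec4g was no longer among the members lower with dexamethasone in either genotype.

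No value that turned sign passed the threshold in any setting that turned it. Wnt2 with dexamethasone in wild type was -0.22 without the arrays with pancreas transcripts and -0.10 to 0.31 without single arrays, and in knockouts -0.25 to 0.038. Rspo3 in wild type was -0.24 to 0.0092 without single arrays. Stab2 with dexamethasone in knockouts was 0.0023 with centred arrays, 0.071 without the arrays with pancreas transcripts and -0.074 to 0.071 without single arrays, and for knockout against wild type under vehicle it was -0.13 to 0.087. Clec4g in that comparison was 0.13 with the mean of its probe sets, 0.012 with the covariate and -0.11 to 0.074 without single arrays, and its interaction with the mean of its probe sets was -0.074. Kdr for knockout against wild type under dexamethasone was -0.069 to 0.11 without single arrays.

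Replicate numbers are shared by the groups but did not pair the samples: deviations of same-numbered arrays correlated between -0.54 and 0.36, with 3 of 18 correlations over 0.1, and 1 of 12 arrays was closest to its own number. With the number as a block, 3 members were higher and 6 lower in knockouts, where Clec4g missed the threshold (adjusted p = 0.067), 1 and 8 in wild type, and 5 and 12 in the average. The 3 arrays in each group limit the size of change that could pass.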

Other observations

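Genes of Notch and BMP signalling, pathways that shape endothelial identity and that hepatocytes also use, were mostly not called with dexamethasone. Of 22 genes 0 were higher and 3 lower in knockouts in limma, where 4.38% and 3.92% of all genes were. At an unadjusted p under 0.05 there were 7 in knockouts, against 18.5% of all genes. In wild type 1 was higher and 2 were lower, where 4.57% and 6.95% of all genes were. Id2, an early target of BMP signals, averaged 7.98 ± 0.52 in knockout dexamethasone livers and 10.26 ± 0.18 in knockout vehicle livers, and 8.23 ± 0.52 in wild-type dexamethasone livers and 9.53 ± 0.26 in wild-type vehicle livers (SD, n = 3 each). It fell by 2.28 ± 0.27 in knockouts and by 1.30 ± 0.27 in wild type. Its relative Id3 fell by 1.71 ± 0.24 in knockouts and changed by -0.44 ± 0.24 in wild type, where it did not pass. Hes1, a Notch target, fell by 0.96 ± 0.27 in knockouts, a call lost without any 1 of 6 arrays (-1.07 to -0.63). In wild type the Notch ligand gene Dll4 fell by 0.66 ± 0.13 and the endothelial receptor gene Notch4 rose by 0.53 ± 0.09. Without the arrays with pancreas transcripts the knockout calls of Id2 (-2.18) and Id3 (-1.63) remained, and those of Hes1 (-1.07), Dll4 (-0.63), Notch4 (0.46) and Id2 in wild type (-1.08) were lost.

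Pericentral Wnt target genes of hepatocytes, which receive Wnt2 and Rspo3 from the central vein, gave calls in both directions. Most of the 17 changed downward, 14 in knockouts (median -0.18) and 13 in wild type (median -0.28). The medians over all genes were -0.01 and 0.01. The mean level of the list was 6.82 to 6.99 in knockout dexamethasone livers, against 7.06 to 7.28 in knockout vehicle livers. In wild type it was 6.75 to 6.97 with dexamethasone, against 7.10 to 7.33 with vehicle. The list also held Wnt9b, the gene of a Wnt ligand and not of a target, which passed in neither genotype. Of 17 genes 1 was higher and 2 were lower in knockouts, where 4.38% and 3.92% of all genes were. In wild type 2 were higher and 3 lower, where 4.57% and 6.95% of all genes were. Lgr5, an R-spondin receptor gene, averaged 3.46 ± 0.36 in knockout dexamethasone livers and 5.06 ± 0.07 in knockout vehicle livers, and 3.13 ± 0.22 in wild-type dexamethasone livers and 4.90 ± 0.17 in wild-type vehicle livers (SD, n = 3 each). It fell by 1.60 ± 0.16 in knockouts (adjusted p = 3.22e-05) and by 1.77 ± 0.16 in wild type (adjusted p = 1.41e-05). Rnf43, a ubiquitin ligase that removes Wnt receptors, fell by 0.96 ± 0.26 and 1.70 ± 0.26, with the knockout call lost without any 1 of 6 arrays (-1.07 to -0.74). The glutamate transporter gene Slc1a2 rose by 0.64 ± 0.16 and 0.82 ± 0.16, and in knockouts it missed the threshold without any 1 of 4 arrays (0.51 to 0.64). The glutamine synthetase gene Glul rose by 0.33 ± 0.08 in wild type and missed it when vehicle 1 or dexamethasone 2 of the wild type was left out (0.29 and 0.30). Without the arrays with pancreas transcripts Lgr5 (-1.62 and -2.08) and Rnf43 (-1.02 and -2.05) kept their calls in both genotypes, and Slc1a2 (0.85) and Glul (0.31) lost theirs in wild type.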
